A study of Danio rerio with 11 samples.

Results

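The genes described here are 36 zebrafish genes of sterol and fatty acid synthesis, taken by name from the 30243 genes that the deposited tables list. They comprise 17 enzymes of sterol synthesis from hmgcs1 to dhcr7, 5 genes of sterol regulation and uptake, and 14 genes of fatty acid synthesis, elongation, desaturation and lipid uptake. Of the 36 names, 35 matched the symbol of a listed Entrez gene and 1, acly, matched as a synonym of aclya. RNA sequencing was done on whole zebrafish embryos of the transgenic line TG(fli1:EGFP) at 48 hours after fertilisation, with 6 aldh3a1_KO libraries (genotype aldh3a1-/-) and 5 WT libraries. All embryos carried the fli1:EGFP transgene, a green reporter of blood vessels, and all were kept in E3 medium. Some may have received PTU, which suppresses pigment, and the labels do not say which. The labels name neither the mutation nor the number of embryos per library. They also do not say whether replicates came from separate clutches, so the p-values reflect only how these 11 libraries spread, which may be technical.

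Cells make cholesterol and fatty acids from acetyl-CoA. The mevalonate pathway turns acetyl-CoA into isoprenoid units, squalene synthase joins these into squalene, and a chain of oxidases, reductases and isomerases turns squalene into cholesterol. SREBP transcription factors raise the transcription of many of these enzymes when sterols are low: SCAP carries the SREBP precursor out of the endoplasmic reticulum, and INSIG proteins hold both back when sterols are plentiful. Fatty acids are built by acetyl-CoA carboxylase and fatty acid synthase, then lengthened by ELOVL elongases and desaturated by SCD and FADS enzymes. Enzyme roles given below are those known from mammals and yeast, except that the elongases elovl2, elovl4a, elovl4b and elovl5 and the desaturase fads2 have been characterised in zebrafish. An embryo at this age still feeds on maternal yolk lipid.

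The aldh3a1 transcript was detected in every library, with 1.95 to 5.08 CPM in aldh3a1_KO and 4.39 to 7.88 CPM in WT. CPM is a count per mega counts of the library after TMM scaling. The difference did not pass the threshold of an adjusted p of 0.05 (log2 fold change -0.62 ± 0.27 SE, adjusted p = 0.0621 by edgeR's quasi-likelihood test), and a transcript level need not report the mutation. In 3 of 24 alternative fits aldh3a1 passed as lower. Library totals were 9.22 to 17.2 M estimated counts in aldh3a1_KO and 18.1 to 19.97 M in WT (M, mega). Mitochondrially encoded genes took 5.01 to 25.9% of counts in aldh3a1_KO and 4.63 to 5.62% in WT, and the highest shares were in aldh3a1_KO replicates 1, 5 and 6. All 13 mitochondrially encoded genes rose. All 10 epidermis markers fell, among them the keratin gene krt4 at a log2 fold change of -1.83, and their summed level was 1280 to 2541 TPM in aldh3a1_KO and 6378 to 10596 TPM in WT. One of these markers, cldni, was at 0 in 4 aldh3a1_KO libraries and in 0 WT libraries. It passed the filter on low counts only through WT, where it was high. TPM is the authors' abundance of transcripts, corrected for length and scaled to the library. Of 8 muscle markers 6 fell, with sums of 1118 to 8134 TPM in aldh3a1_KO and 5029 to 24394 TPM in WT. Of 11 yolk and liver markers tested, out of 14, only mttp fell and none rose, with sums of 124.4 to 794.3 TPM in aldh3a1_KO and 47.5 to 853.5 TPM in WT. mttp passed the filter on low counts mainly through WT, where it was high, so its fall is not counted as support. The liver marker ttr was at 0 in all 6 aldh3a1_KO libraries and in 3 of 5 WT libraries. Of 11 neuron and glia markers tested, out of 12, 3 rose and 1 fell, with sums of 1665 to 5804 TPM in aldh3a1_KO and 2511 to 4165 TPM in WT. This sum joins markers that moved in opposite directions, 6 with positive and 5 with negative log2 fold changes. elavl3 had 4845 to 8740.5 CPM in aldh3a1_KO and 1396 to 1748 CPM in WT. slc1a3b had 6.67 to 26.1 CPM in aldh3a1_KO and 56.6 to 96.8 CPM in WT. Of 6 photoreceptor markers tested, out of 12, 1 rose and 2 fell, with sums of 43.6 to 256.6 TPM in aldh3a1_KO and 44.2 to 186.8 TPM in WT. Among those tested, rho had at most 1.30 CPM in aldh3a1_KO. In WT it had 0.726 to 2.15 CPM in replicates 1, 2 and 3, and 24.9 and 27.9 CPM in replicates 4 and 5. It likewise passed the filter through WT. The photoreceptor marker saga went the other way, with 47.9 to 145.2 CPM in aldh3a1_KO and 16.9 to 28.3 CPM in WT. The part of these cell types and of the mitochondrial share in the results below was not tested. In whole embryos, fewer cells of a type and less RNA per cell cannot be told apart.

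Most of the sterol and fatty acid genes that passed the test were lower in aldh3a1_KO embryos, from the isomerase idi1 and the regulator srebf1 to the elongases elovl1b and elovl6 and the lipoprotein lipase lpla. The phosphomevalonate kinase pmvk and the elongase elovl5 were higher. Of the 36 genes, 16 fell, 2 rose and 18 did not pass the threshold (adjusted p under 0.05 over all 22182 genes tested, edgeR's quasi-likelihood test with Benjamini-Hochberg adjustment). Over all genes tested the genotypes differed widely: 55.3% passed, 29.3% as lower and 26.0% as higher. Of the sterol and fatty acid genes 50% passed, which is near that background, while 44.4% were lower and 5.56% higher. Their median log2 fold change was -0.50, against -0.12 over all genes tested, with 27 values negative and 9 positive. The aldh3a1_KO and WT libraries did not overlap in CPM for 14 of the 36 (38.9%), all among the 18 that passed, against 37.8% of all genes tested. Every one of the 36 passed the filter on low counts. Of these, fdft1 exceeded its cutoff in 0 aldh3a1_KO and 5 WT libraries and elovl2 in 2 aldh3a1_KO and 5 WT libraries, so these 2 genes entered the test through the group where they were high. Among the other 34, 14 fell and 2 rose, and the median log2 fold change was -0.45.

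**Figure D1:**
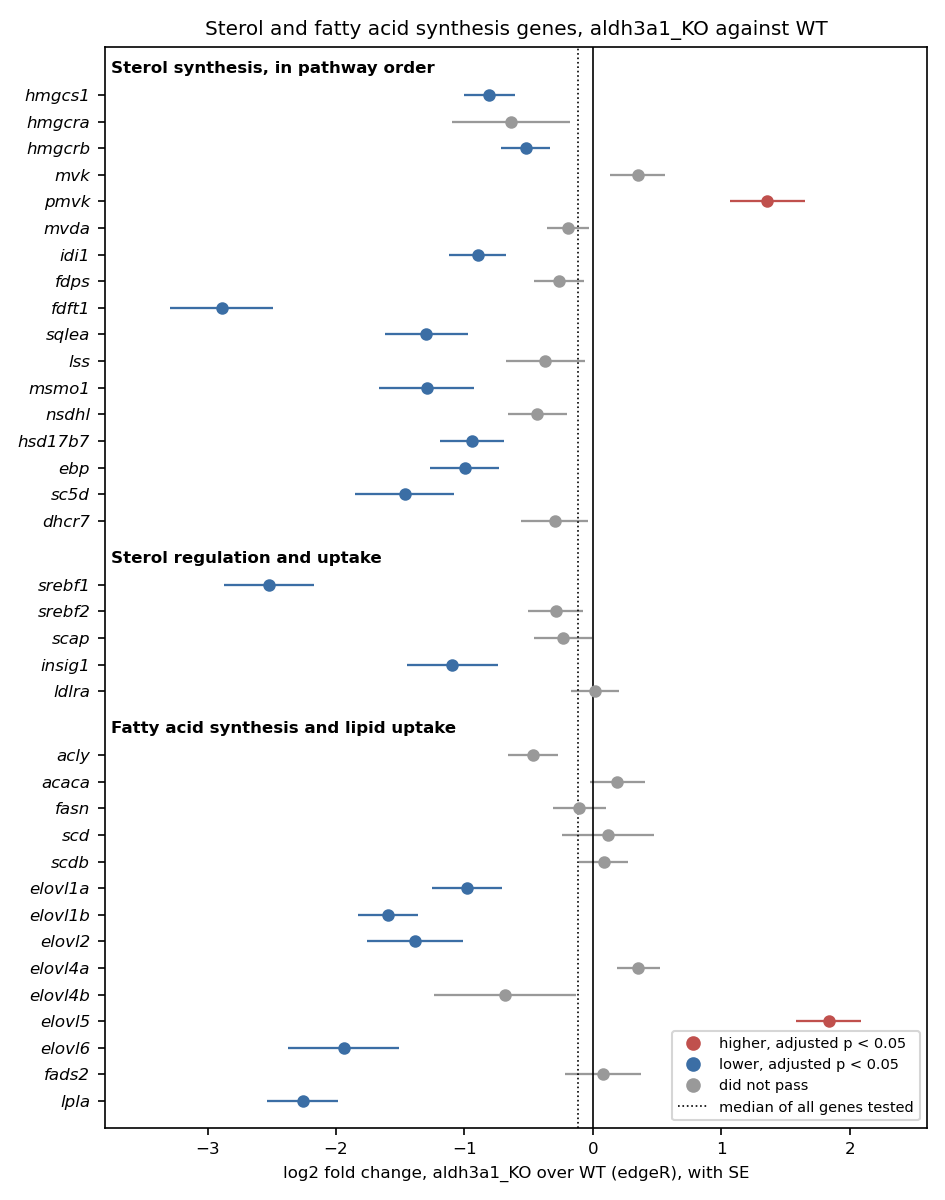
Log2 fold change of aldh3a1_KO over WT (x axis) for the 36 genes in pathway order (y axis), with points for edgeR's estimate and bars for 1 SE; the dotted line marks the median of all genes tested, -0.12. Genes lower in aldh3a1_KO run from hmgcrb at -0.52 to fdft1 at -2.89, and the 2 higher genes are pmvk at 1.36 and elovl5 at 1.83. Of these, fdft1 entered the test only through WT, where it was high.

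In the mevalonate part of sterol synthesis, 3 of 8 genes fell, 1 rose and 4 did not pass, beside 29.3% lower and 26.0% higher over all genes tested. hmgcs1 (Entrez gene 394060) encodes HMG-CoA synthase, which makes the substrate of the rate-limiting step. It was measured at 9.58, 16.7, 14.4, 22.06, 11.7 and 13.3 CPM in aldh3a1_KO and at 24.5, 26.4, 27.3, 23.5 and 26.6 CPM in WT. On this scale the highest aldh3a1_KO library, replicate 4, lay just below the lowest WT library, and the WT values were much closer together. On TPM that replicate was at 8.04, inside the WT range of 7.60 to 9.86 TPM. The gene fell by 0.81 ± 0.20 SE on the log2 scale (adjusted p = 0.0035, edgeR).

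HMG-CoA reductase, the rate-limiting enzyme and the target of statins, is encoded by 2 zebrafish genes. hmgcrb, the more abundant copy, had 14.7 to 30.9 CPM in aldh3a1_KO (median 24.2) and 30.1 to 36.8 CPM in WT (median 34.9). Only the highest aldh3a1_KO library, replicate 4, exceeded the lowest WT library. hmgcrb fell by 0.52 ± 0.19 SE on the log2 scale (adjusted p = 0.0312, edgeR), and the call was lost in 11 of 24 alternatives. Without aldh3a1_KO replicate 5 alone the log2 fold change was -0.32 (adjusted p = 0.0977, edgeR). The minor copy hmgcra had 0.834 to 2.90 CPM in aldh3a1_KO and 1.09 to 4.73 CPM in WT, with a log2 fold change of -0.64 ± 0.46 SE that did not pass (adjusted p = 0.254, edgeR). It was -0.091 without WT replicate 5 and -1.01 without aldh3a1_KO replicate 3.

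Mevalonate is then phosphorylated by 2 kinases in turn and decarboxylated to isopentenyl diphosphate. The second kinase, pmvk (Entrez gene 100003383), was measured at 12.9, 5.21, 7.66, 5.86, 11.9 and 7.35 CPM in aldh3a1_KO and at 3.40, 3.58, 2.37, 2.57 and 4.54 CPM in WT. Every aldh3a1_KO library lay above every WT library. pmvk rose by 1.36 ± 0.29 SE on the log2 scale (adjusted p = 0.0013, edgeR), the only rise among the 17 sterol synthesis genes. The first kinase, mvk, had 5.0 to 8.41 CPM in aldh3a1_KO and 4.29 to 6.54 CPM in WT, with a log2 fold change of 0.35 ± 0.21 SE (adjusted p = 0.179, edgeR). Without aldh3a1_KO replicate 5 mvk passed at 0.52 (adjusted p = 0.0494, edgeR). The decarboxylase gene mvda varied little in either group, with 6.2 to 8.19 CPM in aldh3a1_KO and 7.84 to 8.74 CPM in WT (log2 fold change -0.20 ± 0.16 SE, adjusted p = 0.321, edgeR).

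The isomerase and the prenyl transferase that follow supply isoprenoids for sterols and for other products. idi1 (Entrez gene 553513), isopentenyl diphosphate isomerase, was measured at 34.1, 76.3, 52.8, 66.7, 33.95 and 45.1 CPM in aldh3a1_KO and at 111.9, 83.2, 78.4, 102.3 and 103.9 CPM in WT. The groups did not overlap, although aldh3a1_KO replicate 2 came close to WT replicate 3. idi1 fell by 0.90 ± 0.22 SE on the log2 scale (adjusted p = 0.0037, edgeR). fdps, farnesyl diphosphate synthase, had 21.7 to 45.7 CPM in aldh3a1_KO and 38.7 to 44.6 CPM in WT. Its log2 fold change of -0.26 ± 0.19 SE did not pass (adjusted p = 0.268, edgeR), and aldh3a1_KO replicates 2, 4 and 6 lay within or above the WT range.

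From squalene to cholesterol, 6 of 9 genes fell and none rose, fdft1 included, which entered the test through its WT libraries alone. Over all genes tested 29.3% fell. fdft1 (Entrez gene 571911), squalene synthase, catalyses the first step that is committed to sterols. It was measured at 0.352, 0.474, 0.161, 0.260, 0.238 and 0.465 CPM in aldh3a1_KO and at 2.25, 2.95, 4.14, 1.66 and 1.43 CPM in WT. The lowest WT library was above the highest aldh3a1_KO library by a wide margin, but the counts were low, 25 in all 6 aldh3a1_KO libraries together and 253 in the 5 WT libraries. The fitted log2 fold change was -2.89 ± 0.40 SE (adjusted p = 6.67e-05, edgeR). No aldh3a1_KO library exceeded the cutoff of the filter, so fdft1 could be tested only because WT was high.

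The squalene epoxidase gene sqlea encodes the enzyme that adds the oxygen of the future sterol hydroxyl. It had 0.703 to 1.72 CPM in aldh3a1_KO (median 1.03) and 1.71 to 3.77 CPM in WT (median 2.30). The 2 groups touched at aldh3a1_KO replicate 2 and WT replicate 4. sqlea fell by 1.30 ± 0.32 SE on the log2 scale (adjusted p = 0.0038, edgeR). lss, lanosterol synthase, which closes the sterol rings, had 0.615 to 1.45 CPM in aldh3a1_KO and 1.16 to 1.96 CPM in WT and did not pass (log2 fold change -0.37 ± 0.31 SE, adjusted p = 0.318, edgeR).

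Removal of the methyl groups of lanosterol needs msmo1, the C4 methyl sterol oxidase, nsdhl, a sterol dehydrogenase, and hsd17b7, a ketosteroid reductase. hsd17b7 (Entrez gene 768185) was measured at 2.46, 3.44, 5.49, 6.57, 3.34 and 4.93 CPM in aldh3a1_KO and at 8.75, 7.50, 8.19, 9.08 and 8.65 CPM in WT. The groups did not overlap, and the gene fell by 0.94 ± 0.25 SE on the log2 scale (adjusted p = 0.0053, edgeR). msmo1 had 0.264 to 1.66 CPM in aldh3a1_KO and 1.69 to 3.16 CPM in WT, a fall of 1.29 ± 0.37 SE on the log2 scale (adjusted p = 0.0090, edgeR). Its highest aldh3a1_KO library lay just under its lowest WT library. nsdhl, between them in the pathway, had 2.26 to 3.50 CPM in aldh3a1_KO and 2.95 to 4.29 CPM in WT and did not pass (log2 fold change -0.43 ± 0.23 SE, adjusted p = 0.121, edgeR). It passed as lower in 3 of 24 alternatives, each a fit on TPM.

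The last enzymes move, introduce or reduce double bonds of the sterol nucleus. The isomerase gene ebp had 1.31 to 3.08 CPM in aldh3a1_KO and 3.73 to 5.80 CPM in WT, with no overlap, and fell by 1.0 ± 0.27 SE on the log2 scale (adjusted p = 0.0064, edgeR). The lathosterol oxidase gene sc5d had 0.325 to 1.19 CPM in aldh3a1_KO and 0.958 to 3.11 CPM in WT and fell by 1.46 ± 0.39 SE on the log2 scale (adjusted p = 0.0055, edgeR). Its groups overlapped through aldh3a1_KO replicate 5 and WT replicate 4. dhcr7, the final reductase of one branch, had 2.79 to 9.17 CPM in aldh3a1_KO and 7.74 to 10.8 CPM in WT, with a log2 fold change of -0.30 ± 0.26 SE that did not pass (adjusted p = 0.346, edgeR). In aldh3a1_KO it was lowest in replicate 6, without which the log2 fold change was -0.024.

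Over the 17 sterol synthesis genes, 9 fell, 1 rose and 7 did not pass, with a median log2 fold change of -0.64 and 7 genes whose groups did not overlap. The falls and the genes without overlap include fdft1, which entered the test only through WT, where it was high. The shares that passed, 58.8%, and that did not overlap, 41.2%, were near the 55.3% and 37.8% of all genes tested. By direction, 52.9% were lower and 5.88% higher, against 29.3% and 26.0% of all genes tested. Their summed level was 43.4, 90.5, 83.5, 106.9, 52.7 and 54.8 TPM in aldh3a1_KO and 115.6, 116.8, 121.6, 106.9 and 117.9 TPM in WT. aldh3a1_KO replicate 4 reached the lowest WT library and the other aldh3a1_KO libraries lay below it, lowest in replicates 1, 5 and 6. Since TPM is a share of each library, the sum also moves with the mitochondrially encoded genes, which took 81940 to 372090 TPM in aldh3a1_KO and 74597 to 90076 TPM in WT.

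**Figure D2:**
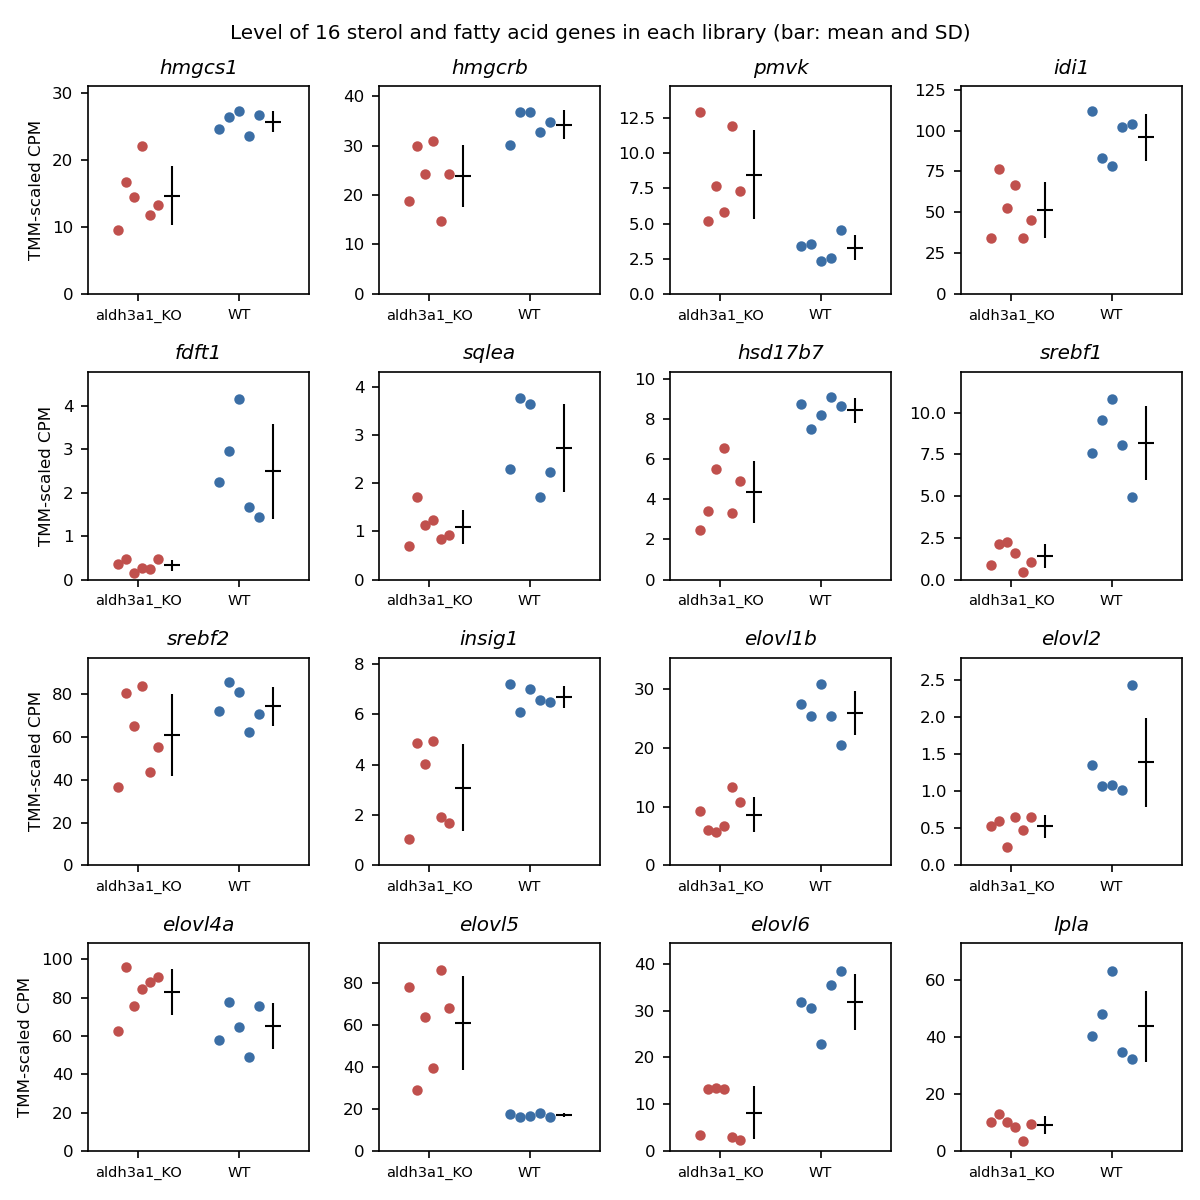
Level of 16 of the genes in TMM-scaled CPM (y axes, each from 0) in the 6 aldh3a1_KO libraries (red, left) and the 5 WT libraries (blue, right), each point a library and the black cross the mean with its SD. fdft1, srebf1, elovl6 and lpla show separated groups with lower aldh3a1_KO values, pmvk and elovl5 separated groups with higher ones, and srebf2 and elovl4a overlapping groups. Of these, fdft1 entered the test only through WT, where it was high.

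Among the regulators, srebf1 fell and its relative srebf2 did not pass the test. srebf1 (Entrez gene 793274) encodes SREBP-1, which in mammals acts mainly on fatty acid synthesis. It was measured at 0.879, 2.13, 2.26, 1.56, 0.477 and 1.02 CPM in aldh3a1_KO and at 7.60, 9.53, 10.8, 8.07 and 4.92 CPM in WT. The highest aldh3a1_KO library was below the lowest WT library by more than the whole aldh3a1_KO range. The gene fell by 2.52 ± 0.35 SE on the log2 scale, which is 5.73-fold lower (adjusted p = 6.70e-05, edgeR). It passed in all 24 alternatives.

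srebf2 encodes SREBP-2, which in mammals acts mainly on cholesterol synthesis and LDL uptake. It was measured at 36.5, 80.6, 65.1, 83.7, 43.6 and 55.4 CPM in aldh3a1_KO and at 72.2, 85.9, 80.9, 62.4 and 70.7 CPM in WT. Replicates 2, 3 and 4 of aldh3a1_KO lay within the WT range and replicates 1, 5 and 6 below it. Its log2 fold change of -0.29 ± 0.21 SE did not pass (adjusted p = 0.262, edgeR). The escort gene scap had 22.4 and 28.2 CPM in its lowest aldh3a1_KO libraries, replicates 1 and 6, against 45.3 to 52.7 CPM in WT. Replicates 2 and 4 of aldh3a1_KO lay above the WT range at 57.5 and 58.4 CPM, and the difference of -0.23 ± 0.23 SE on the log2 scale did not pass (adjusted p = 0.401, edgeR).

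insig1 encodes the membrane protein that retains SCAP in the endoplasmic reticulum and is itself a target of SREBP in mammals. It was measured at 1.05, 4.86, 4.03, 4.95, 1.91 and 1.68 CPM in aldh3a1_KO and at 7.20, 6.10, 7.0, 6.56 and 6.50 CPM in WT. The groups did not overlap, and within aldh3a1_KO replicates 1, 5 and 6 formed a lower set. insig1 fell by 1.09 ± 0.35 SE on the log2 scale (adjusted p = 0.0172, edgeR). Without aldh3a1_KO replicate 5 the adjusted p was 0.0508 and without replicate 6 it was 0.0538, at log2 fold changes of -0.90 and -0.87. The LDL receptor gene ldlra, whose product takes up cholesterol-rich lipoprotein, had 6.81 to 10.5 CPM in aldh3a1_KO and 6.77 to 9.47 CPM in WT, with a log2 fold change of 0.02 ± 0.19 SE (adjusted p = 0.941, edgeR).

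The genes that build fatty acids from acetyl-CoA did not pass the test. acly, ATP citrate lyase, which supplies cytosolic acetyl-CoA, had 30.9 to 59.3 CPM in aldh3a1_KO (median 48.7) and 50.4 to 91.6 CPM in WT (median 57.9), and its log2 fold change of -0.47 ± 0.19 SE lay just outside the threshold (adjusted p = 0.0534, edgeR), with a pass in 5 of 24 alternatives. The acetyl-CoA carboxylase gene acaca had 12.8 to 29.7 CPM in aldh3a1_KO and 17.4 to 19.8 CPM in WT, so the aldh3a1_KO libraries spread to both sides of WT. Its log2 fold change was 0.19 ± 0.21 SE (adjusted p = 0.468, edgeR). fasn, the fatty acid synthase gene, had 16.1 to 35.1 CPM in aldh3a1_KO and 22.4 to 35.7 CPM in WT, with a log2 fold change of -0.11 ± 0.20 SE (adjusted p = 0.680, edgeR). The stearoyl-CoA desaturase genes, whose products introduce the first double bond, gave log2 fold changes of 0.12 ± 0.36 SE for scd and 0.08 ± 0.19 SE for scdb (adjusted p = 0.80 and 0.726, edgeR). scdb was measured at 17.4 to 32.8 CPM in aldh3a1_KO and 20.1 to 30.4 CPM in WT, and the scarce scd at 0.652 to 2.38 CPM in aldh3a1_KO and 0.838 to 1.65 CPM in WT. The sign of acaca, fasn, scd and scdb turned under some scalings, so none of these 4 is given a direction.

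The elongases moved in different directions. elovl6 (Entrez gene 317738), which in mammals lengthens palmitate and other products of fatty acid synthase, was measured at 3.52, 13.3, 13.6, 13.3, 3.10 and 2.42 CPM in aldh3a1_KO and at 31.8, 30.6, 22.8, 35.5 and 38.6 CPM in WT. All aldh3a1_KO libraries lay below WT, in 2 sets, with replicates 1, 5 and 6 the lower. The gene fell by 1.94 ± 0.43 SE on the log2 scale, which is 3.84-fold lower (adjusted p = 0.0018, edgeR).

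elovl1b (Entrez gene 406725), one of 2 copies of an elongase that makes very long saturated chains in mammals, was measured at 9.23, 6.04, 5.73, 6.77, 13.3 and 10.7 CPM in aldh3a1_KO and at 27.5, 25.5, 30.9, 25.4 and 20.5 CPM in WT. Here aldh3a1_KO replicates 1, 5 and 6 were the ones nearer WT, the reverse of elovl6. elovl1b fell by 1.60 ± 0.23 SE on the log2 scale (adjusted p = 8.58e-05, edgeR). The other copy, elovl1a, had 1.78 to 4.13 CPM in aldh3a1_KO and 3.73 to 7.30 CPM in WT and fell by 0.98 ± 0.27 SE on the log2 scale (adjusted p = 0.0071, edgeR), with aldh3a1_KO replicate 1 above the lowest WT library.

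elovl5 (Entrez gene 393425) and elovl2 (Entrez gene 678614) act in turn on polyunsaturated fatty acids. elovl5 was measured at 78.4, 29.1, 63.7, 39.6, 86.5 and 68.2 CPM in aldh3a1_KO and at 17.8, 16.3, 16.9, 18.1 and 16.1 CPM in WT. Every aldh3a1_KO library was above the narrow WT range, and replicates 1, 5 and 6 were the highest. elovl5 rose by 1.83 ± 0.26 SE on the log2 scale, which is 3.57-fold higher (adjusted p = 6.69e-05, edgeR).

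elovl2, which takes the chain on from elovl5 towards DHA, was measured at 0.527, 0.592, 0.242, 0.651, 0.477 and 0.651 CPM in aldh3a1_KO and at 1.35, 1.06, 1.09, 1.01 and 2.44 CPM in WT. The groups did not overlap, on totals of 40 counts in aldh3a1_KO and 142 in WT. elovl2 fell by 1.39 ± 0.38 SE on the log2 scale (adjusted p = 0.0064, edgeR), opposite in sign to elovl5. It exceeded the filter cutoff in 2 aldh3a1_KO and 5 WT libraries, so it entered the test through the group where it was high. The desaturase gene fads2, which acts before and between these elongases, had 2.55 to 4.74 CPM in aldh3a1_KO and 1.92 to 5.25 CPM in WT. It did not pass (log2 fold change 0.08 ± 0.30 SE, adjusted p = 0.842, edgeR), and its sign turned under some settings.

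The elongases of the longest chains, abundant in retina and brain, did not pass. elovl4a had 62.5 to 96.1 CPM in aldh3a1_KO (median 86.1) and 49.1 to 77.6 CPM in WT (median 64.7), with a log2 fold change of 0.35 ± 0.17 SE (adjusted p = 0.0870, edgeR). It passed as higher in 8 of 24 alternatives, among them the fit without aldh3a1_KO replicate 1 at 0.54. elovl4b varied widely within both groups, with 3.16 to 34.6 CPM in aldh3a1_KO and 8.34 to 60.1 CPM in WT, and its log2 fold change of -0.68 ± 0.56 SE did not pass (adjusted p = 0.311, edgeR).

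lpla (Entrez gene 30354) encodes lipoprotein lipase, which releases fatty acids from circulating lipoproteins for uptake. It was measured at 10.3, 12.97, 10.003, 8.26, 3.57 and 9.40 CPM in aldh3a1_KO and at 40.4, 48.05, 63.2, 34.5 and 32.3 CPM in WT. The lowest WT library was far above every aldh3a1_KO library. lpla fell by 2.26 ± 0.28 SE on the log2 scale, which is 4.78-fold lower (adjusted p = 3.04e-05, edgeR), and it passed in all 24 alternatives. Over the 14 genes of the fatty acid group, 5 fell, 1 rose and 8 did not pass, with a median log2 fold change of -0.29. The falls include elovl2, which entered the test through WT, where it was high. The share that passed was 42.9%, against 55.3% of all genes tested. By direction, 35.7% were lower and 7.14% higher, against 29.3% and 26.0% of all genes tested. Their summed level was 95.7 to 173.3 TPM in aldh3a1_KO (median 138.0) and 159.1 to 202.5 TPM in WT (median 192.2).

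On the per-length scale of TPM, elovl4a was the most abundant of the 36 genes in both genotypes, with a mean of 49.6 ± 12.2 TPM in aldh3a1_KO and 44.9 ± 9.70 TPM in WT (SD, n = 6 and 5). elovl5 ranked 2 in aldh3a1_KO at a mean of 25.9 TPM and 13 in WT at 8.67 TPM. elovl6 ranked 8 in aldh3a1_KO at 7.26 TPM and 3 in WT at 29.6 TPM, and lpla ranked 13 in aldh3a1_KO at 4.79 TPM and 4 in WT at 26.8 TPM. fdft1 was the least abundant in aldh3a1_KO at 0.196 TPM and ranked 30 in WT at 1.84 TPM. Ranks rest on means, so the order of neighbours with similar means is uncertain. In WT elovl5 was beside hmgcs1 at 8.68 TPM, and in aldh3a1_KO lpla was beside elovl1b at 4.63 TPM.

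Related genes were compared within each library as the first gene's share of the summed TPM of the pair, a measure that does not depend on the scaling of the library. The 10 pairs were chosen after the values had been seen. Their p-values are therefore descriptions and add no support beyond the fold changes of the single genes. An exact two-sided permutation test ran over all assignments of the 11 libraries to groups of 6 and 5. The smallest p it can give is 0.00433, and p-values were adjusted over the 10 pairs. srebf1 made up 2.998% ± 1.07 of srebf1 and srebf2 together in aldh3a1_KO and 13.2% ± 2.73 in WT (SD, 6 and 5 libraries). The exact permutation p was 0.00433, or 0.0217 after adjustment. The shares ran from 1.5 to 4.62% in aldh3a1_KO and from 8.85 to 15.7% in WT. elovl2 made up 1.97% ± 1.23 of elovl2 and elovl5 together in aldh3a1_KO and 13.7% ± 5.29 in WT (SD, 6 and 5 libraries). This pair joins genes already seen to differ in sign, so its shares are a description. Both pairs kept the 2 genotypes apart in every library.

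For squalene epoxidase the fitted changes of the 2 copies differed in sign. sqlea made up 40.5% ± 26.6 of the pair with sqleb in aldh3a1_KO and 83.8% ± 9.89 in WT (SD, 6 and 5 libraries). The exact permutation p was 0.0130, or 0.0325 after adjustment. In 2 aldh3a1_KO libraries, replicates 2 and 6, the share was 75.4 and 71.1%, inside the WT range of 69.5 to 95.04%, and in the others it was 15.6 to 38.9%. sqleb itself rose by 2.29 ± 0.62 SE on the log2 scale (adjusted p = 0.0062, edgeR), with 0.279 to 3.34 CPM in aldh3a1_KO and 0.145 to 0.555 CPM in WT. It exceeded the filter cutoff in 4 aldh3a1_KO libraries and 1 WT library, so it entered the test mainly through the group where it was high. The copies are similar in sequence, and how the authors' quantification divided shared reads between them is uncertain, here and in the other pairs of duplicates. elovl1a made up 26.4% ± 5.53 of its pair with elovl1b in aldh3a1_KO and 18.7% ± 2.43 in WT (SD, 6 and 5 libraries). The exact permutation p was 0.0130, or 0.0325 after adjustment. The pairs of hmgcra with hmgcrb, insig1 with insig2, ldlra with ldlrb, acaca with acacb, scd with scdb and elovl4a with elovl4b did not pass (adjusted exact permutation p = 0.286 to 0.719).

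**Figure D3:**
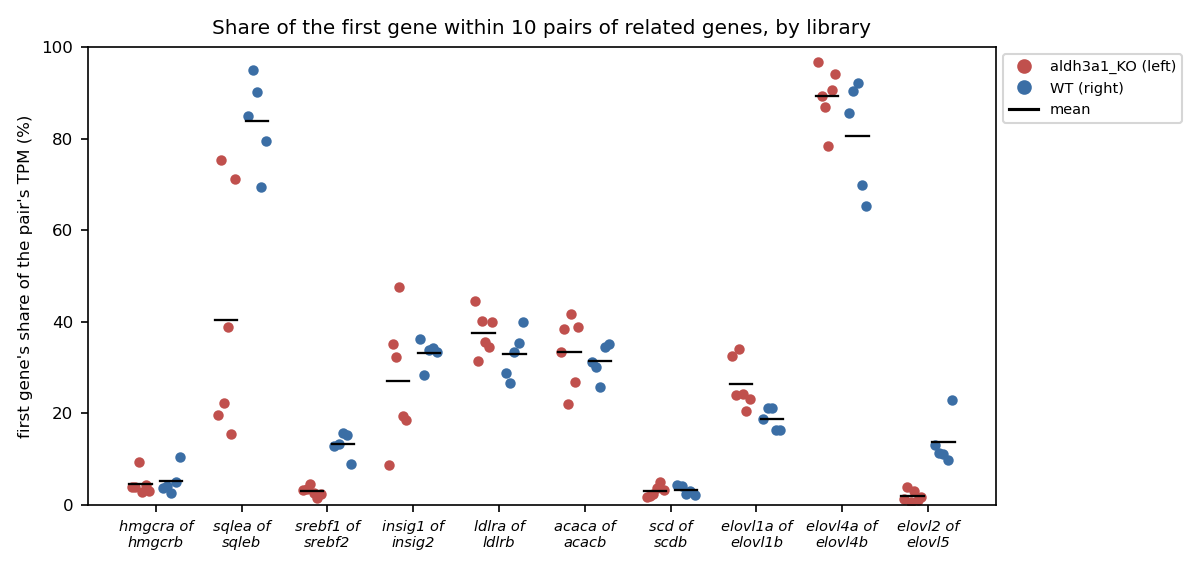
Share of the first gene in the summed TPM of each of 10 pairs of related genes (y axis, percent), with a point per aldh3a1_KO library (red, left) and per WT library (blue, right) and a black line at the mean. The shares of srebf1 and of elovl2 are lower in all 6 aldh3a1_KO libraries than in any WT library, and the sqlea share spreads from 15.6 to 75.4% in aldh3a1_KO.

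The aldh3a1_KO libraries were not alike for these genes. In replicates 1, 5 and 6, which had the highest mitochondrial shares, 13 of the 36 genes (36.1%) were lower in CPM than in each of replicates 2, 3 and 4, against 15.5% of all genes tested. These 13 were hmgcs1, hmgcra, idi1, sqlea, lss, dhcr7, srebf1, srebf2, scap, insig1, elovl4b, elovl6 and fads2. In the same 3 libraries sc5d, elovl1a, elovl1b and elovl5 were higher than in the other 3 (11.1% of the 36, against 14.8% of all genes tested). This split was described from the libraries and was not tested.

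Without aldh3a1_KO replicates 1, 5 and 6, the median log2 fold change of the 36 genes was -0.22, against -0.04 over all genes tested. Then 15 of the 36 were called lower and 3 higher, beside 26.1% and 24.0% of all genes tested. The log2 fold change was then -0.50 for hmgcs1 (adjusted p = 0.0198, edgeR), -0.52 for idi1 (adjusted p = 0.0230, edgeR) and -0.49 for insig1 (adjusted p = 0.0430, edgeR). For elovl6 it was -1.21 (adjusted p = 0.00063, edgeR), and for hmgcrb it was -0.24 and did not pass (adjusted p = 0.145, edgeR). The values of srebf1 (-1.99), lpla (-2.02), elovl1b (-2.03) and elovl5 (1.42) passed there as well. fdft1 was at -2.95 there and elovl2 at -1.43, and both are among the 15 called lower. Both entered the test through WT, where they were high, fdft1 through WT only. Their passes are therefore not counted as support. The sqlea share of its pair was 38.2 points lower in the 3 remaining aldh3a1_KO libraries than in WT (exact permutation p = 0.0714, unadjusted). With these fewer libraries the smallest p that this permutation test can give is 0.0357, so it has little room to pass.

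**Figure D4:**
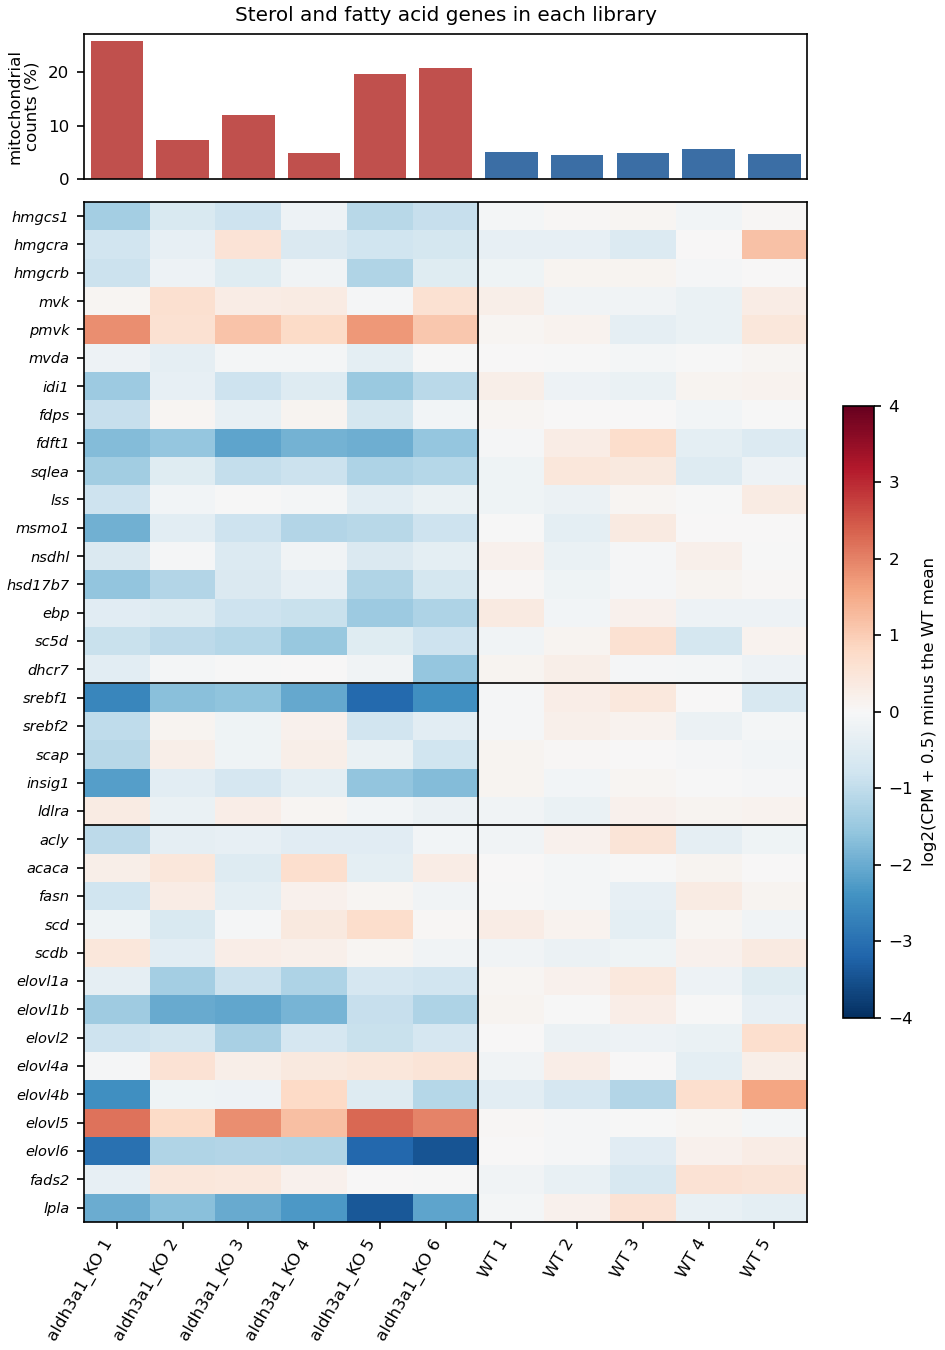
Level of the 36 genes (rows, in pathway order) in each library (columns, aldh3a1_KO left of WT), coloured by log2(CPM + 0.5) minus the mean of the 5 WT libraries, with the mitochondrial share of counts in percent drawn above. Blue is lower and red higher than the WT mean; aldh3a1_KO replicates 1, 5 and 6, with mitochondrial shares of 25.9, 19.8 and 20.9%, are the darkest blue for srebf1, insig1 and elovl6.

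Other genes of the same pathways were counted from lists of sterol synthesis, sterol handling, fatty acid synthesis and activation, glycerolipid synthesis and fatty acid oxidation. Of 117 listed genes 106 were tested, of which 42 fell, 12 rose and 52 did not pass. The share that passed, 50.9%, was near the 55.3% of all genes tested, and the median log2 fold change was -0.43. By direction, 39.6% were lower and 11.3% higher, against 29.3% and 26.0% of all genes tested. Of 13 other sterol and isoprenoid synthesis genes tested, out of 14, 8 fell and 2 rose (76.9% passed, 61.5% as lower and 15.4% as higher). They included nus1, a subunit of the enzyme that makes dolichol precursors, at -2.41 ± 0.27 SE (adjusted p = 1.97e-05, edgeR), and cyp51, the lanosterol demethylase, at -0.79 ± 0.15 SE (adjusted p = 0.00053, edgeR). coq2, which prenylates the precursor of coenzyme Q, fell by 0.84 ± 0.22 SE on the log2 scale (adjusted p = 0.0058, edgeR), and sqleb, given above, rose.

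Of 28 sterol handling genes tested, out of 31, 9 fell and 3 rose, so that 32.1% were lower, near the 29.3% of all genes tested. The share that was higher was 10.7%, against 26.0%. Among those tested, mylipb had at most 0.838 CPM in aldh3a1_KO and 1.19 to 1.60 CPM in WT. It passed the filter mainly through WT, where it was high. soat1, which esterifies cholesterol for storage, rose by 2.03 ± 0.25 SE on the log2 scale, with 34.8 to 89.6 CPM in aldh3a1_KO and 12.6 to 19.3 CPM in WT (adjusted p = 3.35e-05, edgeR). stard4, a cytosolic sterol carrier, rose by 2.22 ± 0.29 SE on the log2 scale, with 15.3 to 37.3 CPM in aldh3a1_KO and 3.90 to 7.41 CPM in WT (adjusted p = 4.18e-05, edgeR). The 2 copies of the LDL receptor adaptor gene moved apart, ldlrap1b at 0.99 ± 0.20 SE and ldlrap1a at -0.95 ± 0.21 SE (adjusted p = 0.0011 and 0.0019, edgeR).

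Of 28 further genes of fatty acid synthesis and activation tested, out of 33, 10 fell and 2 rose, so that 42.9% passed, against 55.3% of all genes tested. By direction, 35.7% were lower and 7.14% higher, against 29.3% and 26.0%. acss2, which makes acetyl-CoA from acetate in the cytosol, fell by 2.98 ± 0.28 SE on the log2 scale, with 3.22 to 10.9 CPM in aldh3a1_KO and 37.6 to 70.7 CPM in WT (adjusted p = 9.82e-06, edgeR). The acyl-CoA synthetase gene acsl4a fell by 2.78 ± 0.28 SE on the log2 scale while acsl1a of the same family rose by 1.20 ± 0.18 SE (adjusted p = 1.34e-05 and 0.00013, edgeR). hacd1, a dehydratase of the elongation cycle, fell by 2.66 ± 0.30 SE on the log2 scale (adjusted p = 2.08e-05, edgeR).

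Of 15 glycerolipid synthesis and storage genes tested, out of 17, 4 fell and 3 rose, so that 46.7% passed, against the same 55.3%. By direction, 26.7% were lower and 20.0% higher. The diacylglycerol acyltransferase gene dgat1a rose by 1.24 ± 0.21 SE, the acyltransferase gene agpat9l by 2.16 ± 0.37 SE and the lipid droplet coat gene plin2 by 2.06 ± 0.40 SE on the log2 scale (adjusted p = 0.00023, 0.00028 and 0.00068, edgeR). The other copy of dgat1a, dgat1b, did not share the rise, with 1.86 to 3.34 CPM in aldh3a1_KO and 3.93 to 5.82 CPM in WT. mogat3b, a monoacylglycerol acyltransferase, fell by 1.53 ± 0.23 SE (adjusted p = 0.00011, edgeR). The plin2 value was 1.36 without aldh3a1_KO replicates 1, 5 and 6. Of 22 fatty acid oxidation genes, 11 fell and 2 rose, and the share that passed, 59.1%, was near 55.3%. By direction, 50.0% were lower and 9.09% higher, against 29.3% and 26.0% of all genes tested. The acyl-CoA dehydrogenase genes acadvl and acadm fell by 1.49 ± 0.21 SE and 0.80 ± 0.14 SE on the log2 scale (adjusted p = 7.59e-05 and 0.00034, edgeR), and the enoyl-CoA hydratase gene echs1 by 1.07 ± 0.18 SE (adjusted p = 0.00023, edgeR). pparab, one of 2 genes for the receptor PPAR alpha that drives oxidation genes in mammals, rose by 2.37 ± 0.47 SE on the log2 scale at low levels, with means of 1.73 ± 0.766 CPM in aldh3a1_KO and 0.325 ± 0.173 CPM in WT (SD, n = 6 and 5, adjusted p = 0.00087, edgeR). It exceeded the filter cutoff in all 6 aldh3a1_KO libraries and in 0 WT libraries, so it entered the test through the group where it was high. The other copy, pparaa, did not share the rise, with 2.42 to 4.65 CPM in aldh3a1_KO and 2.91 to 8.38 CPM in WT.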

How the data were processed

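Per the submitters' processing notes, the authors used Trim Galore 0.6.4, kallisto 0.4.6 and the build danRer11, and the labels' protocols name the BGISEQ-500. Strandedness and the annotation are not given in the sources used here. The authors deposited 2 files per library: estimated counts per Entrez gene, which are not whole, and TPM per gene, already scaled for length and depth. Of 30243 genes, 25812 matched a symbol in a RefSeq table, on the assembly GRCz12tu, used for names only. One WT file carries the number 6 in its name where the labels give replicate 5, and the label was used.

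The 36 genes, the other lists, the marker lists and the alternatives were chosen with earlier results of these data known, and the 10 pairs of related genes after their values were seen. The text names all 36, the 4 genes with the smallest adjusted p of each other pathway list, aldh3a1 and at most 3 markers of a list. Outside this rule it names insig2 and lbr, chosen after their values were seen, and ldlrb and acacb as partners in pairs. It also names dgat1b and pparaa, the other copies of named genes, and mylipb, for the way it passed the filter, again after their values were seen. Estimated counts were rounded to whole numbers, filtered with filterByExpr (minimum count 10, in at least 5 libraries), scaled by TMM and tested with the two-sided robust quasi-likelihood F test of edgeR 4.0.16 (R 4.3.3, limma 3.58.1) with genotype as the only term. Benjamini-Hochberg adjustment ran over all 22182 genes tested. Each log2 fold change sets aldh3a1_KO over WT, and its SE was taken from the F statistic. Signs are against 0 and were not centred on the median gene. Shares and permutation tests used Python 3.11.15, numpy 2.4.6, pandas 2.3.3 and scipy 1.17.1, and plots matplotlib 3.10.9. The 24 alternatives were other size factors, DESeq2 1.42.0, other filters, voom with sample weights, log2(TPM + 1) or log2(TPM + 0.1) in limma, the replicate number as a block, sets of libraries left out and mitochondrial genes left out. The main fit was run on simulated counts in which a small share of genes changed, evenly in both directions. In these data 55.3% of genes passed, so the simulation does not test the scaling used here. Totals of 9.22 to 19.97 M (mega) estimated counts limit precision for genes near 1 CPM.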

Additional observations from a re-analysis of the deposited data

Results flagged for a closer look

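Among 72 groups examined (36 genes in aldh3a1_KO and in WT), 5 held a library far from the rest of its group on the log2(CPM + 0.5) scale, and chance gives about 1 in 20 such groups. All 5 were aldh3a1_KO groups. hmgcra was at 2.90 CPM in aldh3a1_KO replicate 3, above 0.834 to 1.36 CPM in the other aldh3a1_KO libraries. elovl2 was at 0.242 CPM in the same replicate 3, below 0.476 to 0.651 CPM in the others. dhcr7 was at 2.79 CPM in aldh3a1_KO replicate 6, below 6.59 to 9.17 CPM in the others. acly was at 30.9 CPM in aldh3a1_KO replicate 1, below 46.9 to 59.3 CPM in the others. lpla was at 3.57 CPM in aldh3a1_KO replicate 5, below 8.26 to 12.97 CPM in the others.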

How the results depend on the processing

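Across the 24 alternatives, the 36 genes gave 2 to 4 higher and 14 to 18 lower calls, and their median log2 fold change ran from -0.71 to -0.22. The lower calls include fdft1 and elovl2, which entered the main test through WT, where they were high. The median of all genes tested was -0.12 with TMM, -0.26 on log2(TPM + 1), -0.36 on log2(TPM + 0.1) and 0.07 with DESeq2's Wald test. Relative to it, the median of the 36 was -0.38, and -0.50 to -0.18 under the alternatives. Of all called genes 47.0% were higher with TMM and 35.5% on log2(TPM + 1). The count of fatty acid genes higher in aldh3a1_KO, 1, was 2 with DESeq2 size factors, upper-quartile factors, DESeq2's Wald test, the replicate block and without aldh3a1_KO 1, 5 and 6, each time with elovl4a as the second. Leaving out 1 library gave 1 to 2 higher genes for fatty acids, 1 to 2 higher for sterol synthesis and 1 to 2 lower for regulation. Leaving out single libraries gave lower counts of 14 to 17 for the 36. The cause of these changes was not tested. Genes that had not passed changed sign as follows. Without aldh3a1_KO 1, 5 and 6 the log2 fold change was 0.014 for fdps, 0.0066 for dhcr7, 0.078 for srebf2, 0.15 for scap, 0.070 for fasn and -0.028 for scd. With voom it was 0.16 for hmgcra, -0.063 for acaca and -0.079 for scd. On log2(TPM + 1), with or without a filter, it was -0.042 for acaca, -0.026 for scd, -0.0059 for scdb and -0.058 for fads2. On log2(TPM + 0.1) it was -0.082 for acaca, -0.12 for scd, -0.0087 for scdb and -0.083 for fads2. For fasn it was 0.0042 with upper-quartile factors and 0.11 on log2(TPM + 1) rescaled without mitochondrial genes, an alternative chosen after seeing the data. With single libraries left out it ran from -0.34 to 0.0017 for scap, -0.060 to 0.18 for ldlra and -0.19 to 0.11 for fasn. For scd it ran from -0.013 to 0.37 and for fads2 from -0.089 to 0.27. In these fits dhcr7, at -0.36 to -0.024, and hmgcra, at -1.01 to -0.091, varied but kept their sign. The difference in pair share without aldh3a1_KO 1, 5 and 6 was 0.125 points for hmgcra/hmgcrb and 5.17 points for insig1/insig2. With single libraries left out it ran from -1.62 to 0.670 points for hmgcra/hmgcrb and from -0.656 to 0.0229 points for scd/scdb. On log2(TPM + 1), which understates low genes, fdft1 was at -1.2. sqleb was tested, with an adjusted p, in 18 of the 24. Same-numbered libraries of both genotypes deviated together weakly (r = 0.0109 to 0.154), so the numbers were not taken as pairs. The replicate block, which leaves out aldh3a1_KO 6, gave 3 higher and 15 lower of the 36 and called 11125 of 21879 genes. It ended the call of hmgcrb. Genes near 1 CPM, such as fdft1, sqlea, msmo1, sc5d and elovl2, rest on few counts per library.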

Other observations

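A further 2 genes of the pathway lists were looked at after their values had been seen. insig2, the relative of insig1, was measured at 2.93 to 6.15 CPM in aldh3a1_KO and 6.76 to 8.27 CPM in WT and fell by 0.70 ± 0.21 SE on the log2 scale (adjusted p = 0.0116, edgeR), so both INSIG genes were lower. With the replicate number as a block the adjusted p of insig2 was 0.0623. lbr, which encodes both a sterol reductase and a protein of the inner nuclear membrane, was measured at 41.7, 122.2, 69.9, 101.2, 11.9 and 19.7 CPM in aldh3a1_KO and at 224.6, 200.03, 191.5, 167.5 and 146.2 CPM in WT. All aldh3a1_KO libraries lay below WT, lowest in replicates 1, 5 and 6, and lbr fell by 1.60 ± 0.47 SE on the log2 scale (adjusted p = 0.0105, edgeR). Without those 3 libraries its log2 fold change was -0.89.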
